A study of Mus musculus with 4 samples.

Results

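The genes described here are 9 components of DNA damage signalling: the kinases *Atm*, *Atr* and *Chek1*, the ATR activator *Topbp1*, the chromatin component *H2afx*, the adaptors *Mdc1* and *Brca1*, the ubiquitin ligase *Rnf8*, and *Scml2*, a germline Polycomb protein. They were chosen by symbol, and each of the 9 matched 1 of the 32285 genes counted in the series. They were followed through the germ-cell stages and somatic cell types of juvenile mouse testes, and then compared between wild-type and *Meioc*-null testes.

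When a double-strand break forms, ATM is recruited by the MRN complex and phosphorylates the histone variant H2AX. MDC1 reads phosphorylated H2AX and spreads the mark, and RNF8 is recruited through MDC1 to ubiquitylate chromatin. ATR answers to single-stranded DNA, needs TOPBP1 for its activation, and signals onward through CHEK1. Meiotic cells make breaks on purpose, and the same proteins have another use in male pachytene cells. There BRCA1, TOPBP1 and ATR load on unsynapsed chromosome axes, MDC1 spreads phosphorylated H2AX over the X and Y chromosomes, and transcription of the sex chromosomes is shut down. RNF8 and SCML2 act downstream on the silenced chromatin.

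The data were 3′ single-cell RNA-seq libraries of dissociated testes at postnatal day 15, from 2 wild-type and 2 *Meioc*-null C57BL/6N pups, 1 testis per pup. Each batch paired a wild-type with a *Meioc*-null littermate. MEIOC is an RNA-binding protein partner needed for germ cells to move through early meiosis, and the null pups carried the *Meioc* tm1.1Dpc allele. All 4 pups, whatever their *Meioc* genotype, carried 1 copy of the *Hspa2* tm1Dix allele and an unrecombined ROSA26 tdTomato reporter on both chromosomes.

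Cell filters left 5644 and 7505 cells in the wild-type libraries, 6554 and 6522 in the *Meioc*-null libraries, with median depths of 11702 to 14421 UMIs (unique molecular identifiers, 1 per captured transcript molecule). Pairs of libraries shared 12 to 16 cell barcodes, at most 0.253% of the smaller library. Over the germ-cell clusters present in every library, *Meioc* itself stood at 276 and 259 CPM (UMIs scaled to a total of 1000000) in the wild-type libraries and 343 and 283 CPM in the *Meioc*-null libraries. The deleted exons are not given in the sources used here and 3′ tags may lie outside them, so this count does not check the labels. Wild-type germ cells formed 11 clusters, numbered from the least to the most advanced. By markers, cluster 1 was undifferentiated spermatogonia-like, clusters 2 to 6 differentiating spermatogonia-like, cluster 7 preleptotene spermatocyte-like, clusters 8, 9 and 10 early spermatocyte-like and cluster 11 pachytene spermatocyte-like. Pachytene markers, each scaled to its highest germ-cell cluster, averaged 0.500 in cluster 10, against 0.277 in cluster 8, 0.363 in cluster 9 and 0.956 in cluster 11. On the same scale, cluster 6 averaged 0.523 for the differentiating spermatogonia markers and 0.496 for the preleptotene markers, so its name rests on a small margin. Germ cells of all libraries were assigned by majority among the nearest wild-type cells. No *Meioc*-null cell fell in clusters 10 or 11, so genotypes were compared in clusters 1 to 9. The study clustered both genotypes together, and there some *Meioc*-null cells were assigned to pachytene. It also reported a cluster made up of *Meioc*-null spermatocytes, most of them in G2/M phase. No such cluster could form here, and a state found in *Meioc*-null cells alone would be spread among clusters 1 to 9.

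Of the 9 genes, 5 lie on chromosome 9 and 2 on chromosome 17. *Scml2* lies on chromosome X (161117193 to 161258213, plus strand, GRCm38) and is the sole sex-linked gene of the group. In the annotation, *Rnf8* shares exonic bases on the same strand with the read-through model *Gm28043*, and *Atr* with *Gm24004*, so that reads there cannot be given to 1 gene with certainty. All values below are UMIs, taken mainly near the 3′ end, and levels are compared within a gene and not between genes.

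Promoters were searched because E2F-type and E-box motifs are the sites bound by the repressors E2F6 and MGA, and the STRA8 motif that of the activator of meiotic genes. RefSeq promoter windows (GRCm38.p6, 250 bases before to 50 after the start) were found for 8 of the 9 genes, with none for *H2afx*. The E2F motif GCGGGAA, sought on both strands, lay in 4 of the 8 windows, against 4.60% of 32851 promoters. The E-box CACGTG, found in 7.15% of all promoters, and the STRA8 motif CNCCTCAG, found in 7.94%, matched none of the 8. The matches follow, 5′ to 3′ along the gene, to show which genes carry the motif, with the motif or its reverse complement in capitals.
Atm, chr9:53536638-53536667, minus strand: tagagccggaaGCGGGAAggcgtgcgtaca
Chek1, chr9:36726609-36726638, minus strand: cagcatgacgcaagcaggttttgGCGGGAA
Mdc1, first match, chr17:35841358-35841387, plus strand: tggaaatctgcGCGGGAAgtagtccgtgga
Mdc1, second match, chr17:35841472-35841501, plus strand: cttcagcctgtTTCCCGCcggtagccgcac
Rnf8, chr17:29614754-29614783, plus strand: cacctgcgcacTTCCCGCccgcctcccgct
The genes with a match did not share 1 course in the data that follow. *Atm* and *Chek1* were lowest in clusters 10 and 11, *Mdc1* stayed high there, and *Rnf8* had its highest mean in cluster 11. A match is a run of letters and not a measured binding site.

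In wild-type germ cells, 5 of the 9 genes had their highest mean level in cluster 8 (*Atm*, *Atr*, *Topbp1*, *Mdc1* and *Brca1*). *Chek1* was highest in cluster 7, *Scml2* in cluster 9, *H2afx* in cluster 10 and *Rnf8* in cluster 11. These levels come from the 2 wild-type libraries and are given as a description without a test. Neighbours in the order of levels are called overlapping where the ranges of the 2 libraries meet. CPM is a share of all UMIs and not a count per cell. Wild-type cells of clusters 8, 10 and 11 had median depths of 10037, 20402 and 47424 UMIs. For *Atr*, 273 and 501 cells of cluster 8 gave 2443 and 5014 UMIs. The 154 and 194 cells of cluster 11 gave 4007 and 4268. *Topbp1* and *Mdc1* likewise gave more UMIs per cell there than in cluster 8, and *Atm* and *Brca1* fewer.

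**Figure D1:**
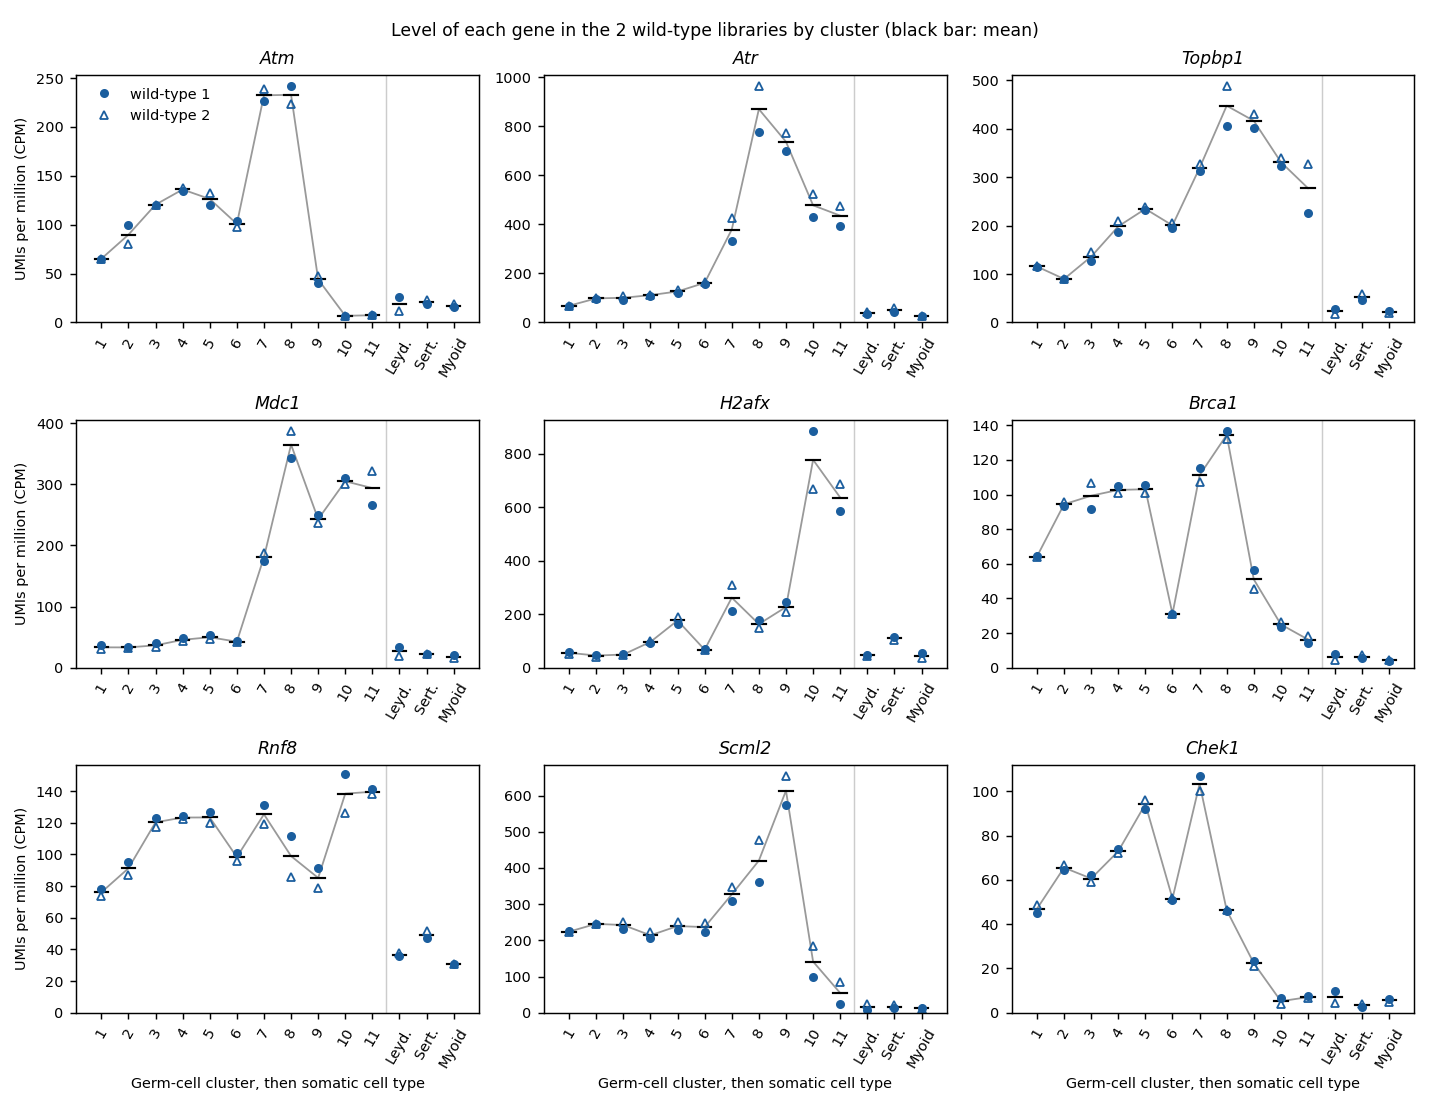
CPM of each gene in the 2 wild-type libraries (filled circles, replicate 1, and open triangles, replicate 2) in germ-cell clusters 1 to 11 and in Leydig, Sertoli and peritubular myoid cells, with the mean as a black bar. In 5 of the panels the mean peaks at cluster 8, *Atm*, *Brca1* and *Chek1* end near 0, and *H2afx* has its highest points in clusters 10 and 11.

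The apical kinases parted ways in spermatocytes. *Atm* stood at 64.8 and 65.4 CPM in cluster 1, at 226 and 239 CPM in cluster 7 and at 242 and 224 CPM in cluster 8. It then stood at 40.8 and 47.2 CPM in cluster 9, 6.51 and 7.12 CPM in cluster 10 and 7.40 and 7.48 CPM in cluster 11. The highest mean was thus 34.2-fold over the lowest, and the ranges of clusters 7 and 8 overlapped. *Atr* was high late. It was lowest in cluster 1, at 68.9 and 68.1 CPM, passed through 334 and 425 CPM in cluster 7, and reached 776 and 965 CPM in cluster 8, 12.7-fold over cluster 1 by the means. In cluster 11 it still stood at 395 and 477 CPM, a range that overlapped clusters 10 and 7. From cluster 8 on the *Atm* and *Atr* courses differed, and in cluster 9 *Atr* held at 702 and 774 CPM.

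Their activator and effector followed different kinases. *Topbp1*, which activates ATR, stood at 115 and 116 CPM in cluster 1. It reached 406 and 488 CPM by cluster 8, and cluster 9 overlapped with 401 and 431 CPM. In cluster 11 it was at 227 and 328 CPM. *Chek1*, the kinase that ATR phosphorylates, was at 107 and 100 CPM in cluster 7, 46.1 and 46.6 CPM in cluster 8, and 6.51 and 3.94 CPM in cluster 10. Over the means of the 11 clusters, the log2 level of *Chek1* had Pearson's r = 0.944 with *Atm*, and that of *Topbp1* r = 0.915 with *Atr*. These r are descriptions over 11 clusters of the same 2 libraries, which share depth and cells.

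Among the chromatin adaptors, *Mdc1* was low in all spermatogonia-like clusters, with means between 33.1 and 49.8 CPM in clusters 1 to 6. It stood at 175 and 187 CPM in cluster 7 and 343 and 387 CPM in cluster 8, and remained at 267 and 321 CPM in cluster 11. *Mdc1* ran closest to *Atr* among the 9 genes, with r = 0.965. *H2afx*, which encodes the histone that ATM and ATR phosphorylate, had several maxima. It was at 164 and 188 CPM in cluster 5, 68.9 and 65.0 CPM in cluster 6 and 213 and 310 CPM in cluster 7. It reached 884 and 669 CPM in cluster 10 and 583 and 688 CPM in cluster 11, which overlapped, and the highest mean was 17.2-fold over the lowest, in cluster 2.

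*Brca1*, an adaptor in repair by recombination and on unsynapsed axes, stood near 100 CPM in clusters 2 to 5, then at 30.9 and 31.2 CPM in cluster 6. It was at 137 and 132 CPM in cluster 8, 56.5 and 45.5 CPM in cluster 9 and 14.5 and 18.0 CPM in cluster 11. Every gene of the 9 except *Atr* had a lower mean in cluster 6 than in clusters 5 and 7, and against cluster 5 the ratio was largest for *Brca1*, *H2afx* and *Chek1*. *Chek1* was at 51.2 and 52.1 CPM in cluster 6, between 92.3 and 96.3 CPM in cluster 5 and 107 and 100 CPM in cluster 7. The summed level of 43 S-phase genes moved alongside, from 7849 and 8039 CPM in cluster 5 to 4850 and 4809 CPM in cluster 6 and 8842 and 8491 CPM in cluster 7. Its part in the dip was not tested. *Rnf8* varied least of the 9, by 1.84-fold, with 7 of its 10 neighbouring pairs overlapping and 141 and 138 CPM in cluster 11.

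*Scml2* stood between 205 and 252 CPM in clusters 1 to 6, at 362 and 478 CPM in cluster 8, and at 574 and 653 CPM in cluster 9. It was far lower in cluster 10, at 99.6 and 183 CPM, and in cluster 11, at 23.7 and 85.3 CPM, where the replicates differed widely. X-linked UMIs as a whole were 2.37% and 2.44% of all UMIs in cluster 9. They made up 0.380% and 0.487% of cluster 10, then 0.116% and 0.148% of cluster 11. As a share of X-linked UMIs, *Scml2* was 2.42% and 2.68% in cluster 9. The share was 2.62% and 3.76% for cluster 10, then 2.04% and 5.78% for cluster 11. The level of this gene, whose product acts on the silenced sex chromosomes, was thus lower where X-linked transcripts were lower, and its share of them was lower than in cluster 9 of the same library in wild-type replicate 1 of cluster 11 alone.

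**Figure D2:**
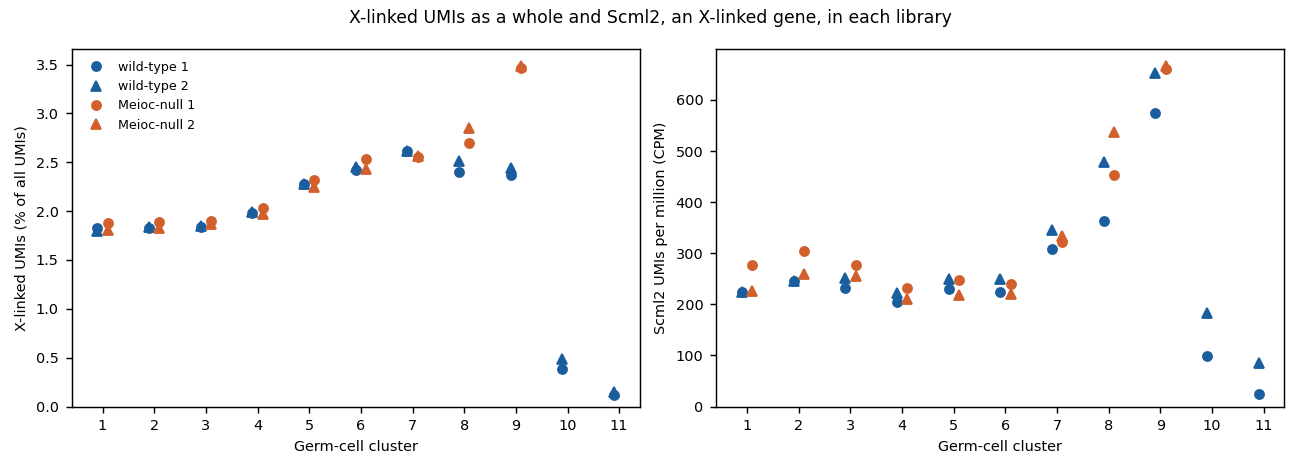
Share of UMIs from X-linked genes (left, percent) and *Scml2* level (right, CPM) in each library by germ-cell cluster, wild type in blue and *Meioc*-null in orange, circles for replicate 1 and triangles for replicate 2. Both lie lower in clusters 10 and 11 than in cluster 9 in wild type, and in cluster 9 the *Meioc*-null libraries lie at 3.46% and 3.49% X-linked UMIs, above 2.37% and 2.44% in wild type.

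Across 7186 genes with at least 40 wild-type UMIs in each germ-cell cluster, the 2 genes whose course was most like each of the 9 were found by Pearson's r of log2(CPM + 1) over the 11 cluster means. They were *Ss18l2* and *Lig1* for *Atm* (both r = 0.988), *Tsga10* (0.991) and *Ccdc122* (0.986) for *Atr*, and *Rps19bp1* (0.986) and *Cep83* (0.982) for *Topbp1*. For *Mdc1* they were *Spdya* (0.990) and *Iqcb1* (0.981), for *H2afx* *Mrgbp* (0.948) and *Gfm1* (0.940), and for *Brca1* *Nup133* (0.953) and *Ddx21* (0.952). For *Rnf8* they were *Znrf1* (0.924) and *H3f3b* (0.919), for *Scml2* *Tktl1* (0.985) and *Fmr1* (0.965), and for *Chek1* *Wdhd1* (0.983) and *Ttc19* (0.978).

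In somatic cells every gene was measured and all were lower than at their germ-cell maximum. In Sertoli cells of wild type *H2afx* was at 115 and 103 CPM, and in each of the 4 libraries it lay at 76.6% to 92.4% of its mean over germ-cell clusters 1 to 9. *Rnf8* in Sertoli cells stood at 43.1% to 55.5% of that mean and *Topbp1* at 20.3% to 27.9%. The 5 germ-cell markers, which Sertoli cells should lack, stood at 8.37% to 10.0% in the same cells, a level that free RNA or attached germ cells can give. The share of *Scml2* (4.36% to 9.11%) was below that of the markers in each library. *Chek1* (4.35% to 10.4%) was above the markers in *Meioc*-null replicate 2 alone, by 10.4% against 10.0%, and *Brca1* (6.35% to 14.0%) was below them in both wild-type libraries and above them in both *Meioc*-null libraries. In peritubular myoid cells *Rnf8* stood at 25.9% to 30.7% and *H2afx* at 26.7% to 44.5%, against 1.91% to 4.66% for the germ-cell markers. *Scml2* stood there at 2.72% to 4.93%, slightly above the markers in each library. The source of the *Scml2* UMIs in somatic cells was not tested. Leydig cells numbered 177 over all libraries and gave 1 to 53 UMIs per gene and library.

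The comparison of genotypes asked at which stage the loss of *Meioc* went with other levels of these transcripts. Fold changes are wild type over *Meioc*-null from edgeR's quasi-likelihood test on UMIs summed per library and cluster, and a gene was called at a Benjamini-Hochberg adjusted p under 0.05 over all genes tested and an absolute log2 fold change over 0.1. The littermate pairs share a batch of library preparation and sequencing, and the fit that adds the pair as a block is given wherever it changed a call. With 4 libraries the block leaves little to judge a gene's own spread. Its p-values therefore rest largely on the spread shared across genes.

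**Figure D3:**
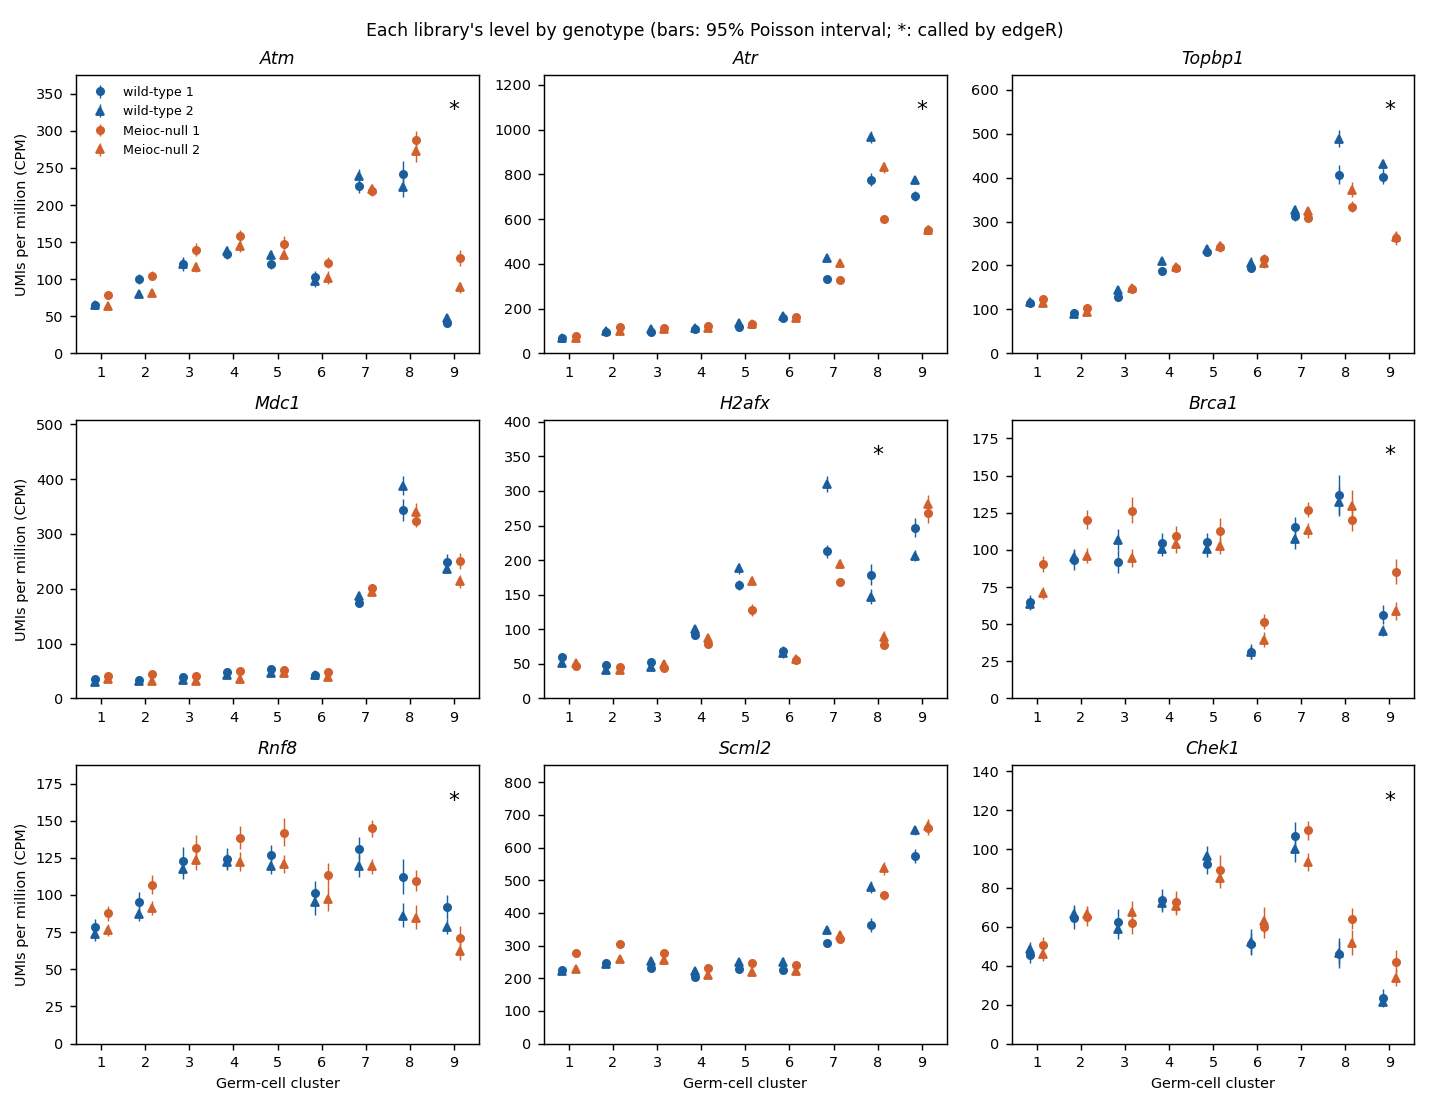
CPM of each gene in germ-cell clusters 1 to 9 for the 2 wild-type (blue) and 2 *Meioc*-null libraries (orange), circles for replicate 1 and triangles for replicate 2, with 95% Poisson intervals that cover counting error only. Asterisks mark calls by edgeR, which lie in cluster 8 for *H2afx* and in cluster 9 for *Atm*, *Atr*, *Topbp1*, *Brca1*, *Rnf8* and *Chek1*.

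In the spermatogonia-like clusters, with cluster 6 named by a small margin, no gene of the 9 was called. The 54 differences in clusters 1 to 6 ran from -0.51 to 0.29 on the log2 scale, with a lowest adjusted p of 0.156. DESeq2 called 0 of them, and 3 fell under an unadjusted p of 0.05 in edgeR, 1 in cluster 1 and 2 in cluster 6. Of all genes, 207 of 14544 did so in cluster 1 and 1075 of 11148 in cluster 6. The share of all genes that edgeR called was 0% for clusters 1 and 2, 0.0727% for cluster 3 and 0.0475% for cluster 4. It was 0.0166% for cluster 5 and 0.682% for cluster 6. The lowest adjusted p belonged to *Brca1* in cluster 6, at 30.9 and 31.2 CPM for wild type against 51.6 and 39.3 CPM in *Meioc*-null cells. The 2 groups did not overlap there, but with 2 libraries a side this is common. It held for 3 of the 9 genes in cluster 6 and for 2 to 4 in each of clusters 1 to 5. The share of all genes without overlap is not given here, so these counts show nothing particular to the 9. With the littermate block the *Brca1* difference was called (log2 fold change -0.52, edgeR adjusted p = 0.00173), as were 6.33% of all genes.

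*H2afx* was the gene of the 9 called in the earliest cluster, in the fit with the littermate block. There it was called in cluster 5 (log2 fold change 0.29, adjusted p = 0.0492 in edgeR), where 2.65% of all genes were called, though the groups overlapped at 164 and 188 CPM for wild type, against 127 and 170 CPM for the *Meioc*-null libraries. In preleptotene-like cluster 7, *H2afx* stood at 213 and 310 CPM for wild type, against 168 and 195 CPM for the *Meioc*-null libraries. The difference of 0.58 (SE 0.23) on the log2 scale was not called by edgeR without the block (adjusted p = 0.182) and was called with it (adjusted p = 3.55e-05). None of the 9 genes was called in cluster 7 without the block by edgeR or DESeq2, against 7.06% of all genes in edgeR. An unadjusted p under 0.05 in edgeR was reached by 1 of the 9, against 2798 of the 12410 genes tested. With the block *H2afx* was the sole call, against 28.8% of all genes. The other 8 genes had log2 fold changes between -0.07 and 0.13 there.

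In early spermatocyte-like cluster 8, *H2afx* was called in both fits. It stood at 178 and 147 CPM for wild type (163 ± 22.1, SD, n = 2), against 76.8 and 89.3 CPM for the *Meioc*-null libraries (83.1 ± 8.84, SD, n = 2). The log2 fold change was 1.08 (SE 0.16, edgeR adjusted p = 0.00314), and wild type was higher in both littermate pairs, by 1.21 and 0.72 on the log2 CPM scale. *H2afx* was 1 of 9 called in cluster 8, against 17.1% of all genes. The call was lost under Bonferroni adjustment, and where clusters 7 and 8 merged, with a minimum of 8 clusters (0.61) or a 5% mitochondrial limit (0.02).

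With the littermate block 4 of the 9 genes were called in cluster 8, each higher in wild type, against 41.9% of all genes called and 20.1% called higher in wild type. *Topbp1* stood at 406 and 488 CPM for wild type, against 334 and 372 CPM for the *Meioc*-null libraries (log2 fold change 0.45, edgeR adjusted p = 0.000197 with the block and 0.0803 without). The groups did not overlap for *Topbp1*, as was so for 6 of the 9 genes in cluster 8, a count not set against all genes. *Atr* stood at 776 and 965 CPM against 603 and 831 CPM, overlapping between groups but higher in wild type in both pairs (0.40, edgeR adjusted p = 0.000511 with the block and 0.233 without). *Mdc1* stood at 343 and 387 CPM against 324 and 341 CPM (0.25, edgeR adjusted p = 0.0204 with the block and 0.259 without). Fitted fold changes in cluster 8 exceed the ratio of CPM by a median of 0.12 on the log2 scale through the TMM scaling factors, so part of the *Mdc1* value rests on the scaling. *Atm*, *Brca1*, *Rnf8*, *Scml2* and *Chek1* were not called in either fit.

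**Figure D4:**
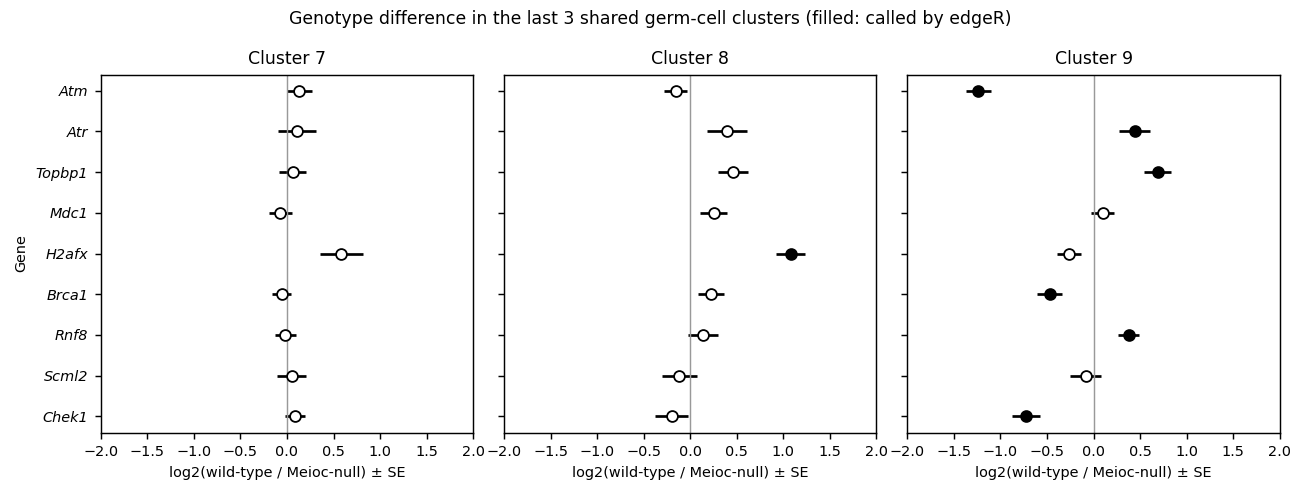
Log2 fold change (wild type over *Meioc*-null, points) with its standard error (bars) for each gene in germ-cell clusters 7, 8 and 9, filled where edgeR called the difference. In cluster 9 *Atm*, *Brca1* and *Chek1* lie left of 0 and *Atr*, *Topbp1* and *Rnf8* right of 0, all filled.

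In cluster 9, the last cluster with *Meioc*-null cells, 6 of the 9 genes were called, 3 in each direction, against 51.5% of all genes (24.8% higher in wild type, 26.7% lower). The share among the 9 was thus near the background. *Atm* stood at 40.8 and 47.2 CPM for wild type (44.0 ± 4.50, SD, n = 2), against 128 and 88.9 CPM for the *Meioc*-null libraries (109 ± 27.9, SD, n = 2), the largest difference of the 9. The log2 fold change was -1.24 (SE 0.14, edgeR adjusted p = 2.83e-08). *Chek1* stood at 23.5 and 21.3 CPM for wild type, against 41.9 and 33.8 CPM for the *Meioc*-null libraries (-0.73, SE 0.15, edgeR adjusted p = 0.000142). *Brca1* stood at 56.5 and 45.5 CPM against 85.3 and 58.8 CPM (-0.47, SE 0.13, edgeR adjusted p = 0.00413; DESeq2 adjusted p = 0.0539). The groups did not overlap for any of these 3 genes, as was so for 8 of the 9 genes in cluster 9. That count too is not set against all genes. The *Brca1* call was lost when *Meioc*-null replicate 1 (-0.26) or the wild-type library of replicate 2 (-0.35) was left out.

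The 3 genes higher in wild type in cluster 9 included the ATR kinase and its activator. *Topbp1* stood at 401 and 431 CPM for wild type (416 ± 21.2, SD, n = 2), against 262 and 265 CPM for the *Meioc*-null libraries (264 ± 2.64, SD, n = 2), and the log2 fold change was 0.69 (SE 0.14, edgeR adjusted p = 0.000138). *Atr* stood at 702 and 774 CPM against 553 CPM in both *Meioc*-null libraries (0.44, SE 0.17, edgeR adjusted p = 0.0257). *Rnf8* stood at 91.6 and 78.7 CPM against 71.0 and 62.4 CPM (0.38, SE 0.12, edgeR adjusted p = 0.00764; DESeq2 adjusted p = 0.0562). Wild-type libraries were above *Meioc*-null libraries for each of these in both littermate pairs. The *Atr* call was lost without either of the wild-type libraries (0.56 without replicate 1, 0.33 without replicate 2) and without *Meioc*-null replicate 1 (0.38), and the *Rnf8* call without wild-type replicate 1 (0.32). With a 5% mitochondrial limit, clusters 7 and 8 and 53.2% of the kept wild-type cells of cluster 9 fell into 1 cluster, where none of the 9 genes was called, and Bonferroni adjustment over genes and clusters left *Atm* alone. Of all genes, 6.15% and 12.1% were called in these fits.

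The other 3 genes were not called in cluster 9 without the block. *H2afx*, higher in wild type in cluster 8, was at 247 and 206 CPM for wild type, against 269 and 281 CPM for the *Meioc*-null libraries. Its log2 fold change of -0.26 (SE 0.13) had an edgeR adjusted p of 0.0909 without the block and 0.0198 with it. With the block 7 of the 9 genes were called, against 59.0% of all genes. *Mdc1* was at 249 and 237 CPM against 251 and 213 CPM, and *Scml2* at 574 and 653 CPM against 661 and 667 CPM. X-linked UMIs together stood higher in *Meioc*-null cells of cluster 9, and the *Scml2* share of X-linked UMIs was 2.42% and 2.68% in wild type and 1.91% in both *Meioc*-null libraries.

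Other lists moved with genotype in clusters 8 and 9. In cluster 9 the 4 preleptotene markers summed to 522 and 521 CPM for wild type, against 1564 and 1416 CPM for the *Meioc*-null libraries, and the 8 pachytene markers to 710 and 618 CPM against 307 and 313 CPM. The 43 S-phase genes summed to 4407 and 4337 CPM against 6533 and 5811 CPM, and the 54 G2/M genes to 11707 and 11563 CPM against 16956 and 17120 CPM. In cluster 8 the preleptotene markers summed to 1440 and 1120 CPM against 2670 and 2579 CPM. None of the preleptotene or S-phase genes was at 0 in any library in these clusters, and *Ccna1* was the sole pachytene marker at 0, in 3 of the 4 libraries of cluster 9. The part of these shifts in the differences above was not tested. The 6 Sertoli markers followed the batch instead, at 84.4 and 88.8 CPM in the replicate 1 libraries and 53.1 and 50.5 CPM in the replicate 2 libraries of cluster 9.

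Whether the genotype difference changed along the germ-cell clusters was tested with a genotype by cluster interaction over clusters 1 to 9, called for 41.1% of 15627 genes. It was called for 7 of the 9 genes, with an edgeR adjusted p of 4.67e-09 for *Topbp1*, 2.88e-06 for *Atm*, 0.00124 for *Chek1*, 0.00237 for *Rnf8*, 0.00422 for *Brca1*, 0.0105 for *Atr* and 0.0139 for *H2afx*. *Mdc1* (0.137) and *Scml2* (0.375) were not called, other than without *Meioc*-null replicate 2 (0.00963 and 0.0320). Leaving out 1 library gave 4 genes without wild-type replicate 1 (27.6% of all genes called) and without wild-type replicate 2 (20.8%), 5 without *Meioc*-null replicate 1 (32.8%) and 8 without *Meioc*-null replicate 2 (39.5%). *Topbp1* and *Atm* were called each time. *Brca1* was lost in 3 of these 4 fits (adjusted p of 0.0758, 0.150 and 0.177) and called without *Meioc*-null replicate 2 alone. *Atr* was lost without either wild-type library, *H2afx* without either *Meioc*-null library, *Rnf8* without wild-type replicate 1 (0.213) and *Chek1* without wild-type replicate 2 (0.188).

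The remaining signalling genes were described through a list of 45 in 6 groups, of which 42 passed the count filter in clusters 8 and 9. Cluster 7 had 2 calls, cluster 8 had 5 and cluster 9 had 17, with none in clusters 1 to 6. These were 4.65%, 11.9% and 40.5% of the listed genes tested, below the 7.06%, 17.1% and 51.5% of all genes called in either direction. By direction the picture differed in cluster 8. All 5 calls there were higher in wild type, and their 11.9% lay above the 7.62% of all genes called higher in wild type. Both calls in cluster 7 were higher in *Meioc*-null, against 4.86% of all genes. Of the 17 in cluster 9, wild type was higher for 12 and *Meioc*-null for 5, against 24.8% and 26.7% of all genes. The medians of the log2 fold change were 0.28 in cluster 8 and 0.07 in cluster 9, beside -0.04 and -0.02 over all genes tested. With the littermate block the list had 9, 20 and 20 calls in clusters 7, 8 and 9, 3 in cluster 6 and 1 in cluster 5, against 28.8%, 41.9% and 59.0% of all genes in clusters 7, 8 and 9, 6.33% in cluster 6 and 2.65% in cluster 5.

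**Figure D5:**
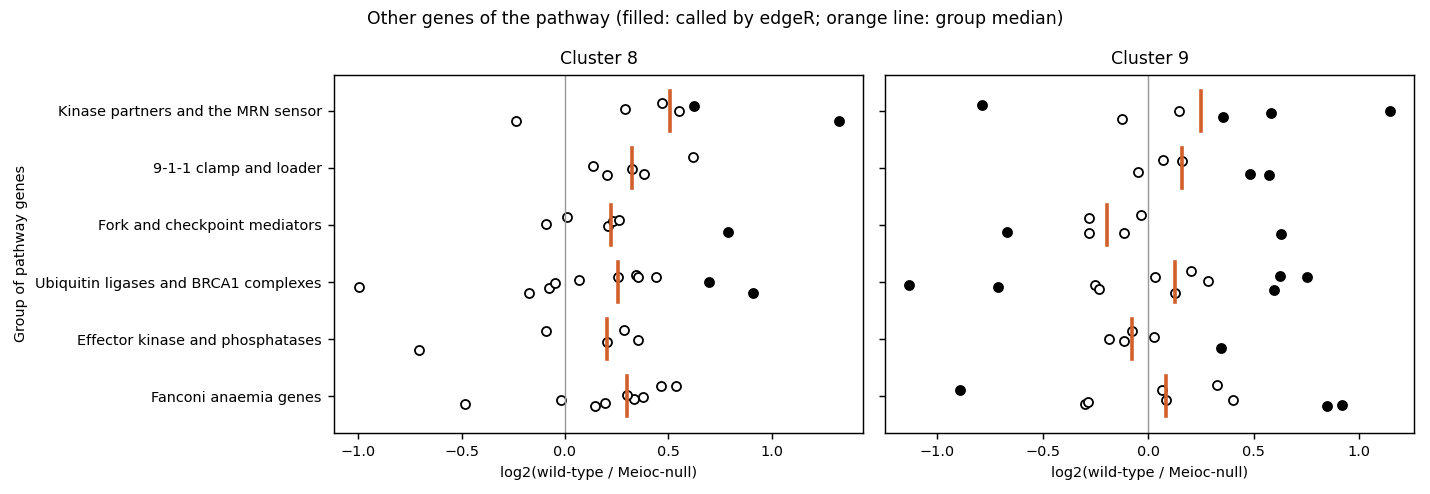
Log2 fold change (wild type over *Meioc*-null) of the tested genes in each of 6 groups of the pathway in clusters 8 and 9, filled where edgeR called the gene, with the group median as an orange line. In cluster 8 all 6 medians lie above 0 and the 5 filled points are higher in wild type, whereas in cluster 9 the filled points lie on both sides.

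The calls of the 6 groups in cluster 9 are to be read against the 51.5% of all genes called there. Among the kinase partners and the MRN sensor 4 of 6 genes were called. *Nbn*, the MRN subunit that binds ATM, stood at 36.3 ± 0.470 CPM for wild type and 16.8 ± 2.80 CPM for *Meioc*-null cells (SD, n = 2 each; log2 fold change 1.15, edgeR adjusted p = 4.87e-07). *Nbn* was already called in cluster 8 (1.33, edgeR adjusted p = 0.00374), together with *Mre11a* (0.62, edgeR adjusted p = 0.0314). *Etaa1*, an ATR activator that works apart from TOPBP1, showed the opposite sign, with 15.2 ± 1.17 CPM for wild type and 26.5 ± 0.0841 CPM for *Meioc*-null cells (-0.79, edgeR adjusted p = 0.000370). The 2 ATR activators thus differed from wild type in opposite directions in cluster 9.

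In the clamp that TOPBP1 binds to activate ATR (RAD9-HUS1-RAD1, with its loader), 2 of 5 tested genes were called in cluster 9, *Hus1* (0.57, edgeR adjusted p = 0.00270) and *Rad1* (0.48, edgeR adjusted p = 0.00206), both higher in wild type. Among 6 fork and checkpoint mediators 2 were called. *Rif1* stood at 534 ± 21.0 CPM for wild type and 351 ± 0.834 CPM for *Meioc*-null cells (0.63, edgeR adjusted p = 0.000804). *Clspn*, which brings CHEK1 to ATR and is also 1 of the S-phase genes, was higher in *Meioc*-null cells, like *Chek1* itself (-0.67, edgeR adjusted p = 2.52e-05).

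Of 11 genes of ubiquitin signalling and the BRCA1 complexes, 5 were called in cluster 9, 3 higher in wild type. *Uimc1*, whose product reads ubiquitin chains for the BRCA1-A complex, stood at 167 ± 25.7 CPM for wild type and 101 ± 14.3 CPM for *Meioc*-null cells (0.75, edgeR adjusted p = 3.10e-06). *Brcc3*, the deubiquitinase of that complex, was at 6.63 ± 0.768 CPM against 14.6 ± 0.384 CPM (-1.13, edgeR adjusted p = 0.000178), so that the 2 subunits differed in opposite directions. X-linked UMIs as a whole were higher in *Meioc*-null cells of cluster 9, and the chromosomes of these 2 genes were not compared. Among 5 tested genes of the effector kinase and phosphatase group 1 was called, *Ppp4c* (0.34, edgeR adjusted p = 0.0129; DESeq2 adjusted p = 0.0631). Among 9 tested Fanconi anaemia genes 3 were called, with *Fancf* higher in wild type (0.92, edgeR adjusted p = 0.0252; DESeq2 adjusted p = 0.152) and *Fancm* higher in *Meioc*-null cells (-0.89, edgeR adjusted p = 8.13e-07).

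In somatic cells edgeR called none of the 9 genes, against 0.413% of all genes in Sertoli cells and 0.167% in peritubular myoid cells. DESeq2 called 0 as well. An unadjusted p under 0.05 in edgeR was reached by 4 of the 18 differences, 2 in each cell type. Of all genes, 572 of 11378 did so in Sertoli cells and 339 of 12596 in peritubular myoid cells. With the littermate block *Scml2* was called in Sertoli cells (log2 fold change -0.69, edgeR adjusted p = 0.0413), where 1.29% of all genes were called. *Scml2* stood at 12.6 and 21.4 CPM for wild type, against 26.1 and 29.7 CPM for the *Meioc*-null libraries. Relative to germ cells these levels lay below those of the germ-cell markers in each library, and their source was not tested. The germ-cell markers in the same cells stood at 188 and 204 CPM for wild type, against 208 and 229 CPM for the *Meioc*-null libraries.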

How the data were processed

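The authors deposited raw UMI counts per gene and cell barcode for 4 testis libraries (10x 3′ chemistry), made with Cell Ranger 4.0.0 on the mm10 (GRCm38) reference; their submitters' notes also name Seurat. Barcodes with over 1000 detected genes and under 10% mitochondrial UMIs were kept, and doublets, scored with Scrublet, were removed at 0.8% per 1000 barcodes (690 to 996 per library), where the study used another caller. Wild-type germ cells were clustered (scanpy 1.11.5, leidenalg 0.10.2, 2000 variable genes without the listed genes, 30 components), and each cell took the majority cluster of its 30 nearest wild-type cells. Cell types were named from marker lists.

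Sums of UMIs by cluster and library (373396 to 17635807) were formed, and genes with at least 40 UMIs over the 4 libraries were tested with edgeR 4.0.16 (quasi-likelihood, TMM, robust, genotype as the only term) in clusters with at least 50 cells in every library. DESeq2 1.42.0 was an alternative. The interaction fit held library and cluster terms. The labels give littermate pairs by batch, and deviations of same-numbered libraries from their genotype means correlated at 0.189 to 0.487 across genes, so the littermate block was fitted as well. The scripts were tested on simulated data. With 2 libraries per genotype an exact permutation test cannot go below p = 0.333 and was not used. The text names the 9 genes, the 2 genes most like each, and the 2 largest called differences per pathway group in cluster 9; *Mre11a* in cluster 8 was named after its values were seen. The genes and lists were chosen with earlier results of these data known. Motif positions came from RefSeq promoters and gene positions from GENCODE vM21. Protein sequences were not used here.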

Additional observations from a re-analysis of the deposited data

Results flagged for a closer look

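The genotype difference of 7 of the 9 genes varied between germ-cell clusters by the edgeR interaction test. The adjusted p was 4.67e-09 for *Topbp1* and 0.0105 for *Atr*, both higher in wild type in cluster 9. It was 2.88e-06 for *Atm*, 0.00124 for *Chek1* and 0.00422 for *Brca1*, each higher in *Meioc*-null cells in cluster 9, and 0.00237 for *Rnf8*, higher in wild type there. For *H2afx* it was 0.0139, with log2 fold changes of 1.08 in cluster 8 and -0.26 in cluster 9. The test was called for 41.1% of all genes. With 1 library left out at a time, *Brca1* was called in 1 of 4 fits, *Atr* and *H2afx* in 2, *Chek1* and *Rnf8* in 3, and *Topbp1* and *Atm* in all 4.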

How the results depend on the processing

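With 2 libraries per genotype, calls rest on the spread between 2 pups. Differences between neighbouring wild-type clusters were not tested.

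The littermate (replicate) block gave 1 of the 9 genes in each of clusters 5, 6, 7 and Sertoli cells, 4 in cluster 8, and 1, 3, 9 and 20 of the 45 pathway genes in clusters 5, 6, 7 and 8. Of all genes, the block fit called 2.65%, 6.33%, 28.8% and 41.9% in clusters 5, 6, 7 and 8 and 1.29% in Sertoli cells. The block ended no call. Bonferroni adjustment over genes and clusters left 0 of the 9 genes in cluster 8 and 1 in cluster 9 (*Atm*), and 0, 0 and 4 pathway genes in clusters 7, 8 and 9, against 0.0322%, 0.0954% and 12.1% of all genes. Without the count filter, 1 of the 9 genes was called in cluster 7 (8.11% of all genes) and 1 pathway gene in cluster 6 (1.32%). DESeq2 gave 1 pathway gene in cluster 7 (5.63% of all genes), and of the edgeR calls in cluster 9 it did not make *Brca1*, *Rnf8*, *Rad50*, *Ppp4c* or *Fancf*. With a minimum of 8 germ-cell clusters, clusters 7 and 8 merged, as did 9 and 10; 0 of the 9 genes and 2 pathway genes were called for cluster 8, against 9.04% of all genes. The 5% mitochondrial limit put clusters 7 and 8 and 53.2% of the kept wild-type cells of cluster 9 into 1 cluster, which stood for all 3 and left out the rest of cluster 9. It gave 0 calls for the 9 genes in clusters 8 and 9 and 0 for the pathway genes in clusters 7, 8 and 9, against 6.15% of all genes. In that merged cluster, set against cluster 9, the signs of *Rnf8* (-0.11) and *Chek1* (0.13) turned over. This limit was not run in clusters 1, 4 and 5, where a library had under 50 cells.

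Leaving out 1 library, with the lone library of its genotype assumed to vary like the others, gave 0 to 1 of the 9 genes in clusters 6, 7 and Sertoli cells, 1 to 3 in cluster 8 (3 without the *Meioc*-null library of replicate 2, 2 without the wild-type library of replicate 1), and 4 to 8 for the interaction. Of all genes, 10.5% to 23.8% were called in cluster 8 (23.8% and 15.4% in the fits just named) and 20.8% to 39.5% for the interaction. Pathway genes ranged over 0 to 2 in clusters 6 and 7 and 4 to 9 in cluster 8, against 0.834% to 2.09% and 3.42% to 8.90% of all genes in clusters 6 and 7. The calls of *Atr*, *Brca1* and *Rnf8* in cluster 9 were each lost in at least 1 of these fits. *Atm*, *Topbp1* and *Chek1* in cluster 9 and *H2afx* in cluster 8 were called with each library left out. The cause of these changes was not tested.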
